A study of Homo sapiens with 6 samples.

Results

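The mitochondrial ribosomal protein genes were taken as every row of the deposited count table whose symbol is MRPL or MRPS followed by a number and at most 1 letter from A to C. This gave 77 of 56832 gene symbols, 48 with MRPL names for the large subunit and 29 with MRPS names for the small subunit. Pseudogene rows have longer names and were not taken. The study sequenced poly(A)-selected RNA of HEK293T cells, a cultured human embryonic kidney line that expresses the SV40 large T antigen. It has 6 libraries: 3 of unmodified wild-type cells, and 3 of cells that the labels call SMARCA3 KO, a knockout of the chromatin ATPase and ubiquitin ligase that the gene HLTF encodes. Both groups share the same medium with fetal bovine serum and penicillin-streptomycin, and the labels give no other treatment. The labels do not say how the knockout was made, whether it is 1 clone, or whether replicates were separate cultures, so each p-value here reflects how far these samples scatter, and that scatter may be technical.

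Mitochondria keep their own ribosome, which translates the few mRNAs of the mitochondrial genome, all of them for membrane subunits of the respiratory chain and ATP synthase. Its RNAs are made inside the organelle, while all its proteins are encoded in the nucleus, made in the cytosol and imported. Some of these proteins descend from bacterial ribosomal proteins, and others were added in the mitochondrial lineage. The small subunit reads the mRNA, and the large subunit forms the peptide bond and sits at the inner membrane, into which the products are inserted.

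Total counts ran from 33125811 to 41593655 per library, and the knockout libraries were the 3 shallowest. All 77 members passed the filter on low counts and entered the test, and the smallest count of any member in a library was 35. HLTF mRNA measured 215, 191 and 195 CPM (read counts scaled to library size) in wild-type and 141, 140 and 149 CPM in the knockout. The groups did not overlap, and its log2 fold change, knockout over wild-type, was -0.48 (adjusted p = 4.65e-05), next to a median of -0.50 over the 40 nearest expressed genes. The transcript was thus still present in the libraries labelled as knockout, and which part of the gene was altered is not given in the labels. Of genes chosen as markers of this line, KRT8 measured 6.66 and 3.54 CPM in wild-type and knockout, and KRT18 30.7 and 13.8 CPM. In the same order, PAX2 measured 4.52 and 10.8 CPM, VIM 183 and 117 CPM, and CDH2 107 and 87.6 CPM. The blood markers PTPRC and CD3E gave 3 and 0 counts over all 6 libraries.

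The mitochondrial ribosomal protein mRNAs leaned lower in the knockout. In bulk RNA, fewer cells of a kind and less RNA per cell cannot be told apart. Of 77 members, 28 fell, 5 rose and 44 were not called by edgeR's quasi-likelihood test at an adjusted p under 0.05. Over all 18061 genes tested, 31.8% were called, 17.7% as lower and 14% as higher, against 36.4% and 6.49% of the members. Among the tested genes that averaged 10 CPM or more, a level that 72 members reached, 20% were called lower and 16.9% higher. The log2 fold change was below 0 in 61 of 77 members, or 79.2%, against 49.4% of all tested genes. The median log2 fold change was -0.11 over the members, equal to 7.61% less mRNA, and 0.00 over all tested genes. The changes were small: the 28 called members fell by between 8.64% and 20.4%.

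Counts of non-overlapping libraries gave the same picture. In 39 members every knockout library was lower than every wild-type library, and in 7 every knockout library was higher. Over all tested genes these shares were 24.4% and 21.2%. The summed level of all members was 5827, 5875 and 6086 CPM in the wild-type libraries, in order of replicate number. The knockout sums were 5529, 5434 and 5618 CPM. The groups did not overlap, and the mean of the knockout libraries was 6.78% lower. The plot of members in each library shows that the medians of both subunits lie lower in each knockout library than in each wild-type library.

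**Figure D1:**
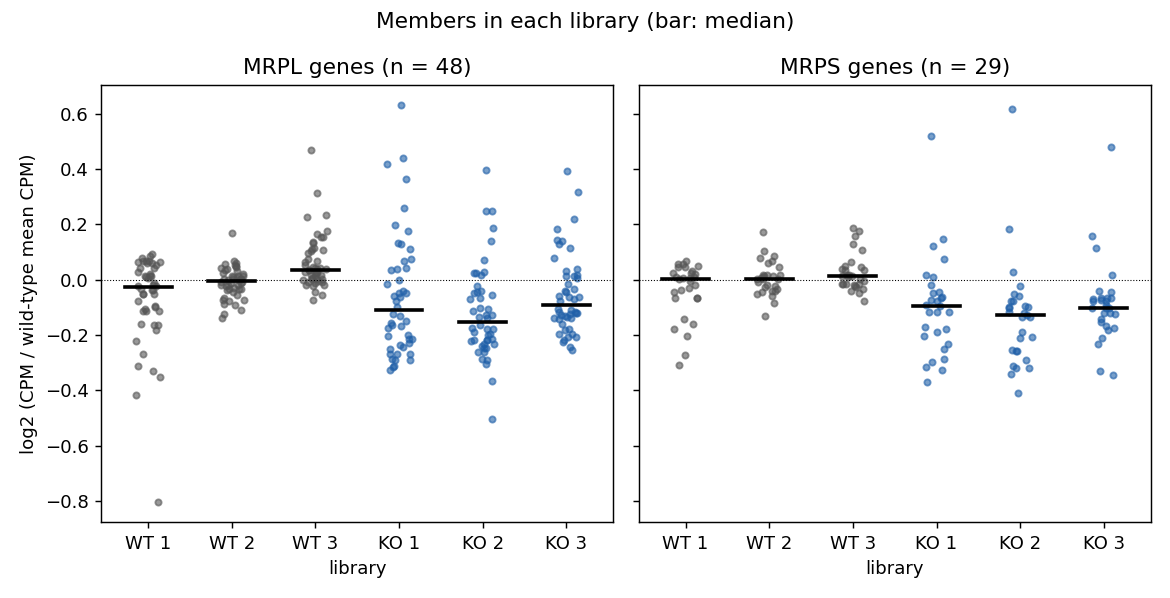
Each point is 1 member in 1 library, as the log2 ratio of its CPM to its mean CPM in the wild-type (WT) libraries, for 48 MRPL and 29 MRPS genes; KO is the knockout and bars are medians. The 3 knockout medians lie lower than the 3 wild-type medians in both panels.

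Calls in the knockout were spread over both subunits. By gene name, 19 of 48 large-subunit members (39.6%) fell and 3 (6.25%) rose, with a median log2 fold change of -0.11. Of 29 small-subunit members, 9 (31.0%) fell and 2 (6.90%) rose, with a median of -0.12. Over all tested genes 17.7% were called lower and 14% higher. The log2 fold change was below 0 in 35 large-subunit (72.9%) and 26 small-subunit (89.7%) members, against 49.4% of all tested genes. The large-subunit median minus the small-subunit median was 0.004 on the log2 scale. Single libraries decided this gap: it was 0.051 without wild-type replicate 3 (-0.04 for the large and -0.09 for the small subunit) and -0.024 without knockout replicate 3, so the order of the subunits is not settled by these libraries. Gene names do not always give the place in the ribosome: MRPS30 and MRPS18A encode proteins of the large subunit, mL65 and mL66. MRPS36 encodes a part of the 2-oxoglutarate dehydrogenase complex that was once counted with the ribosome. With these 3 genes moved, 19 of 50 large-subunit and 8 of 26 small-subunit members fell.

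The balance of the summed levels was close in the 2 groups. The large-subunit sum, assigned by structure, was 1.91 ± 0.016 times the small-subunit sum in wild-type and 1.90 ± 0.0121 times in the knockout (SD, n = 3). The ratios were 1.91, 1.90 and 1.93 in wild-type replicates and 1.89, 1.89 and 1.91 in knockout replicates, so the groups overlapped. The mean sums were 6.94% lower for the large and 6.28% lower for the small subunit. Proteins with a bacterial counterpart and proteins found only in mitochondria were also alike in direction. Of 46 members with a bacterial counterpart, 15 (32.6%) fell and 3 (6.52%) rose, with a median log2 fold change of -0.09. Of 30 members classed as found only in mitochondria, 12 (40%) fell and 2 (6.67%) rose, with a median of -0.13. This class holds MRPS18A and MRPS18B, relatives of bacterial S18 that do not hold its position. Over all tested genes the shares were 17.7% lower and 14% higher.

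**Figure D2:**
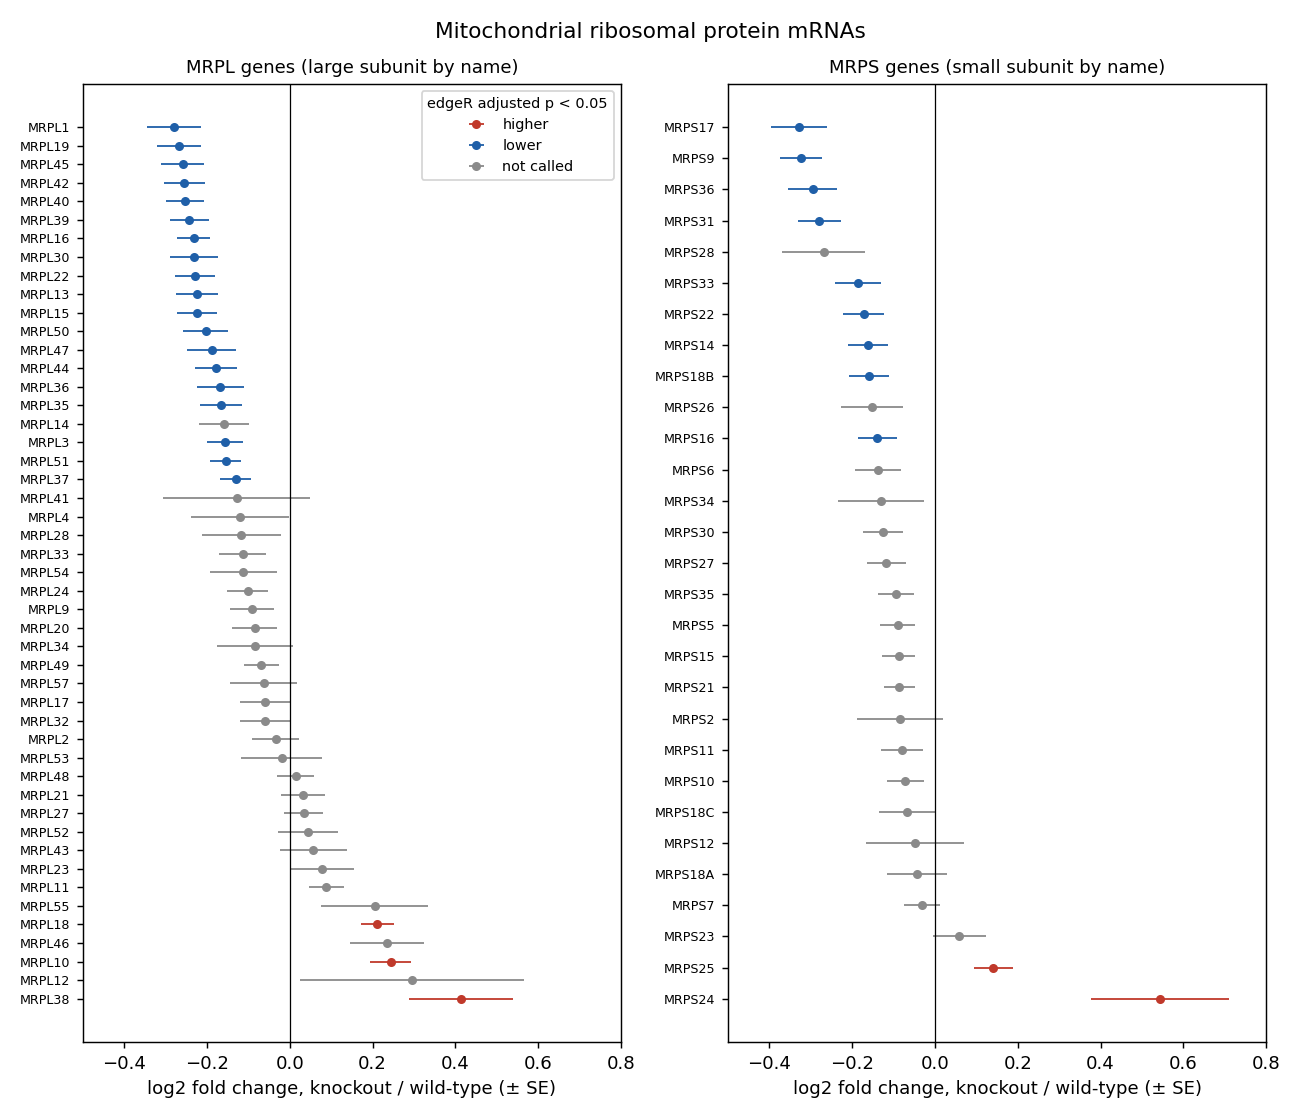
Points give the log2 fold change of each member, knockout over wild-type, with its standard error (SE) from edgeR, ordered from the lowest at the top; colours mark calls at an adjusted p under 0.05. In the large subunit 19 genes lie left of 0 as called and 3 right of it, and in the small subunit 9 and 2.

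Among small-subunit genes the lowest log2 fold changes belonged to MRPS17 and MRPS9. MRPS17 (chromosome 7, 55951819 to 55956501, plus strand, hg38) encodes the counterpart of bacterial protein S17, which binds the ribosomal RNA. Its wild-type libraries gave 12.8, 12.9 and 12.6 CPM and its knockout libraries 10.2, 10.2 and 10.1 CPM. The groups lay far apart for their spread, at -0.33 on the log2 scale (SE 0.07, adjusted p = 0.00394). Its exons overlap 2 other annotated genes on the same strand, NIPSNAP2 by 112 bases and AC092647.5 by 471 bases. MRPS9 (chromosome 2, 105037983 to 105099960, plus strand) encodes the counterpart of bacterial S9. It went from 62.3, 58.4 and 57.6 CPM to 48.3, 47.0 and 47.3 CPM, or -0.32 on the log2 scale (SE 0.05, adjusted p = 0.000669). All its knockout libraries were lower than the lowest wild-type library.

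MRPS36 and MRPS31 followed. MRPS36 (chromosome 5, 69217760 to 69230129), the dehydrogenase component that shares only the name, measured 34.9, 34.1 and 34.9 CPM in wild-type and 26.8, 27.9 and 29.96 CPM in the knockout. It fell by 0.30 on the log2 scale (SE 0.06, adjusted p = 0.00303), so a gene that is not part of the ribosome is among the lowest of the list. MRPS31 (chromosome 13, 40729135 to 40771173, minus strand), a protein found only in mitochondrial ribosomes, went from 46.0, 43.4 and 45.5 CPM to 36.2, 36.7 and 38.3 CPM. Its log2 fold change was -0.28 (SE 0.05, adjusted p = 0.00211). The other called small-subunit genes were MRPS33 (log2 fold change -0.19), MRPS22 (-0.17), MRPS14 (-0.16), MRPS18B (-0.16) and MRPS16 (-0.14). MRPS28, on the same side at -0.27, was not called (adjusted p = 0.0633) at a level of 6.36 CPM in wild-type. Its exons overlap another annotated gene on the same strand by 650 bases.

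Large-subunit genes that fell took part in several regions of the subunit. MRPL1 (chromosome 4, 77862520 to 77952790, plus strand) encodes the protein of the mobile L1 stalk, where deacylated transfer RNA leaves. It went from 47.1, 41.8 and 46.3 CPM to 37.4, 34.96 and 39.02 CPM, or -0.28 on the log2 scale (SE 0.06, adjusted p = 0.00699). MRPL19 (chromosome 2, 75646783 to 75690851), the counterpart of bacterial L19, measured 102, 92.1 and 96.6 CPM in wild-type and 78.0, 79.3 and 84.7 CPM in the knockout (log2 fold change -0.27, SE 0.05, adjusted p = 0.00312). No library of 1 group reached into the range of the other for either gene. MRPL45 (chromosome 17, 38297023 to 38323218) encodes a protein at the tunnel exit that faces the inner membrane. It went from 62.6, 59.8 and 58.5 CPM to 48.1, 51.3 and 51.9 CPM (log2 fold change -0.26, SE 0.05, adjusted p = 0.00336). MRPL42 (chromosome 12, 93467488 to 93516213), a protein without bacterial counterpart, went from 211, 189 and 196 CPM to 160, 166 and 174 CPM (log2 fold change -0.25, SE 0.05, adjusted p = 0.00277).

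The other 15 called large-subunit genes had log2 fold changes between -0.25 and -0.13. They were MRPL40 (-0.25), MRPL39 (-0.24), MRPL16 (-0.23), MRPL30 (-0.23), MRPL22 (-0.23), MRPL13 (-0.22), MRPL15 (-0.22), MRPL50 (-0.20), MRPL47 (-0.19), MRPL44 (-0.18), MRPL36 (-0.17), MRPL35 (-0.17), MRPL3 (-0.16), MRPL51 (-0.16) and MRPL37 (-0.13). MRPL22, which lines part of the exit tunnel in bacterial ribosomes, and MRPL16, beside the site where transfer RNA enters, are counterparts of bacterial proteins. MRPL39 and MRPL44 were added in the mitochondrial lineage.

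Only 5 members rose. MRPL10 (chromosome 17, 47823272 to 47831534, minus strand) encodes the base of the stalk that brings translation factors to the large subunit. It went from 70.6, 78.1 and 77.7 CPM to 90.4, 89.7 and 87.9 CPM, or 0.24 on the log2 scale (SE 0.05, adjusted p = 0.0038). Its stalk partner MRPL12 measured 5.01, 9.14 and 12.1 CPM in wild-type and 13.6, 7.69 and 10.9 CPM in the knockout. The 2 groups of MRPL12 overlapped and it was not called (adjusted p = 0.446). Its exons overlap another annotated gene on the same strand by 701 bases. MRPL18 (chromosome 6, 159789812 to 159798436, plus strand), the counterpart of the bacterial protein that binds 5S RNA, went from 107, 109 and 111 CPM to 125, 129 and 124 CPM (log2 fold change 0.21, SE 0.04, adjusted p = 0.00232). MRPS25 (chromosome 3, 15042460 to 15065335, minus strand), a small-subunit protein without bacterial counterpart, went from 113, 125 and 117 CPM to 128, 134 and 128 CPM (log2 fold change 0.14, SE 0.05, adjusted p = 0.0392). Its exons overlap NR2C2 on the other strand by 1197 bases. No knockout library of these 3 called genes reached down to a wild-type library.

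The remaining pair of rises lay in genes with few counts. MRPL38 (chromosome 17, 75898643 to 75905413, minus strand) went from 3.47, 4.85 and 4.62 CPM to 5.85, 5.68 and 5.67 CPM (log2 fold change 0.41, SE 0.13, adjusted p = 0.0275). Its exons overlap another annotated gene on the same strand by 1373 bases. MRPS24, the counterpart of bacterial S3, had means of 0.955 ± 0.118 and 1.39 ± 0.0692 CPM (SD, n = 3) and a difference of 0.54 on the log2 scale (SE 0.17, adjusted p = 0.0288). Its exons overlap the readthrough gene URGCP-MRPS24 on the same strand by 606 bases, and that row holds 0 counts in all libraries. How the counting treated reads that fall on both genes is not stated by the labels or notes, and the levels of MRPS24 and MRPL38 are uncertain. The same holds for the other members with an overlap on the same strand.

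The 3 relatives of the bacterial protein S18 differed in level more than in response. MRPS18C encodes the copy that holds the bacterial position, MRPS18B a second protein of the small subunit and MRPS18A a protein of the large subunit. MRPS18B measured 111, 111 and 109 CPM in wild-type and 92.8, 104 and 99.1 CPM in the knockout, without overlap, and fell by 0.16 on the log2 scale (adjusted p = 0.0292). MRPS18A measured 19.1, 22.5 and 21.8 CPM and then 20.1, 20.8 and 20.6 CPM. MRPS18C measured 19.8, 21.3 and 19.8 CPM and then 19.0, 18.6 and 20.5 CPM. Both overlapped between groups and were not called, at -0.04 and -0.07 on the log2 scale (SE 0.07 each). The differences between the 3 genes in response were not tested. Per kilobase of annotated exon, the wild-type means were 58.4 CPM for MRPS18B, 16.5 CPM for MRPS18A and 4.17 CPM for MRPS18C. Exons of MRPS18C overlap ABRAXAS1 on the other strand by 1956 bases, and those of MRPS18A overlap RSPH9 by 604 bases.

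Levels per kilobase of annotated exon spread widely, while the ribosome holds its proteins in equal number apart from MRPL12. MRPS36, not a ribosomal protein, is among the 77. The length joins the exons of all annotated transcripts, which gives 16393 bases for MRPL42. How far these lengths shape the spread was not tested. In wild-type libraries the levels ran from 0.366 to 127 CPM per kilobase, with a median of 25.2. The median was 25.8 over 50 large-subunit and 23.7 over 26 small-subunit members. MRPL37 led at 127 CPM per kilobase, followed by MRPL3 at 106, and the small subunit was led by MRPS34 at 88.2 and MRPS21 at 86.9. The 16 members whose exons overlap another gene on the same strand had a median of 10.3 CPM per kilobase, and the 36 that overlap no gene had 29.6. MRPS24 and MRPL38 were the lowest 2 of all 77. Both are in the first of these sets.

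Of the 4 leading members, both large-subunit genes fell and neither small-subunit gene was called. MRPL37 (chromosome 1, 54184041 to 54225464) went from 311, 328 and 329 CPM to 291, 296 and 298 CPM (log2 fold change -0.13, SE 0.04, adjusted p = 0.0216). MRPL3 (chromosome 3, 131462212 to 131502983), which in bacteria reaches to the peptidyl transferase centre, went from 300, 275 and 288 CPM to 256, 251 and 267 CPM (log2 fold change -0.16, SE 0.04, adjusted p = 0.0186). MRPS21 measured 141, 143 and 144 CPM in wild-type and 134, 133 and 136 CPM in the knockout, without overlap but with an adjusted p of 0.102. MRPS34 measured 84.1, 96.9 and 109 CPM in wild-type and 102, 77.5 and 85.7 CPM in the knockout, which overlap (adjusted p = 0.379).

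The letters around transcription starts were read for 68 members from RefSeq promoters (GRCh38.p14, 250 bases before to 50 bases after the start), both strands searched. The 8 letters AAGATGGC, the core of the site of the factor YY1, were in 20 of these 68, or 29.4%, against 3.99% of 14896 protein-coding promoters and 3.03% of all 27305. The 7 letters CCGGAAG, read by ETS factors such as GABP, were in 41.2% of the members, 14.4% of protein-coding and 10.7% of all promoters. For GCGCATGC, part of the NRF1 site, the shares were 8.82%, 4.31% and 3.27%. The windows of 30 bases below are shown because the same letters stand near the start of members called in both directions. Capitals mark AAGATGGC, and the first 4 genes fell while the last 2 rose.
MRPL42, chr12:93467511-93467540, plus strand: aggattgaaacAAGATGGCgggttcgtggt
MRPL45, chr17:38297170-38297199, plus strand: tttgcgggaacAAGATGGCagcccccatac
MRPL51, chr12:6493223-6493252, minus strand: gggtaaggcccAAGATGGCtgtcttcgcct
MRPS18B, chr6:30617852-30617881, plus strand: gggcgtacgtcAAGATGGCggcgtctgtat
MRPL38, chr17:75904860-75904889, minus strand: aggccggagggAAGATGGCggcgccctggt
MRPS24, chr7:43869480-43869509, minus strand: ccgcttggcccAAGATGGCggcctccgtgt

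In 15 members the letters AAGATGGC stood on the coding strand after the start, beginning 7 to 36 bases into the transcript. In 12 of these the ATG within them was an annotated start codon in GENCODE, as for MRPL45, MRPS18B, MRPL38 and MRPS24 among the genes shown. The letters thus lie partly in coding sequence there, and a match of letters does not show that a factor is bound. Of the 20 members that hold them, 8 fell and 2 rose, with a median log2 fold change of -0.10. Of the 48 read members without them, 16 fell and 2 rose, with a median of -0.11. Of members that hold the ETS letters 10 of 28 fell, and of those that do not 14 of 40.

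Members with a close divergent neighbour were common. In 17 of 77 members, or 22.1%, another protein-coding gene started on the opposite strand within 1000 bases upstream, against 7.34% of 18773 protein-coding genes. MRPL18 and TCP1, a subunit of the cytosolic chaperonin, start 63 bases apart on chromosome 6 and both rose, by 0.21 each on the log2 scale. MRPL50 and ZNF189 both fell, by 0.20 and 0.16. MRPL30 and MITD1 start 21 bases apart, with log2 fold changes of -0.23 (called) and 0.09 (not called). MRPL36 and the complex I gene NDUFS6 start 34 bases apart, with -0.17 (called) and 0.08 (not called). MRPL46 and MRPS11, the 1 such pair in which both are members, had log2 fold changes of 0.24 and -0.08, and neither was called. Exons of MRPL46 overlap another annotated gene on the same strand by 724 bases. The differences within pairs were not tested.

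Members lie on 21 chromosomes, and their response followed that of nearby genes in part. The median log2 fold change of the nearest expressed genes outside the list, 20 on each side where the chromosome allows, ran from -0.18 to 0.31 over the members. Across the 77 members it correlated with the member's own log2 fold change at Pearson's r = 0.47 and Spearman's rho = 0.47, as a description, since neighbouring members share neighbours. Over tested genes with at least 10 CPM the values were 0.39 and 0.43. MRPL18 lies among the most raised neighbours of any member, with a neighbour median of 0.31 and 34 of 40 neighbours called higher. MRPL10 and MRPL38, both on chromosome 17, had neighbour medians of 0.18 and 0.17. MRPS7 and MRPS23 on the same chromosome, neither called, measured -0.03 and 0.06 on the log2 scale, where the neighbour medians were 0.16 and 0.18.

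The lean of the list toward lower levels was as large against neighbours as against all genes. Of 77 members, 62 were below their own neighbour median, by a median of -0.12 on the log2 scale. All 28 members that fell were below theirs, but this adds no separate support. They were selected as low, and their neighbour medians ran only from -0.154 to 0.0884. With the neighbour median removed from each gene that had one, 23 members (29.9%) were called lower and 1 (1.30%) higher. The neighbour median entered this fit as a fixed value, so its own error is not in the adjusted p-values. Under the same setting 15.2% and 12.1% of all tested genes were called, including genes without a matched position, which stayed uncorrected. All 77 members had a neighbour median. Of the 23, 19 were among the 28 called lower before and 4 were not called before. Of the 5 called higher, only MRPS24 stayed called, and MRPL18 took the other sign at -0.10 (adjusted p = 0.0908, the highest of its 16 alternatives, whose lowest was 2.09e-05). MRPL47, on the long arm of chromosome 3, had -0.19 beside a neighbour median of -0.15. MRPL1 (-0.12), MRPL42 (-0.13) and MRPL45 (-0.15, given as neighbour medians) also lost their call. MRPL40, at -0.25 beside neighbours at 0.09, and MRPL15, at -0.22 beside 0.07, fell among neighbours with medians on the other side of 0.

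**Figure D3:**
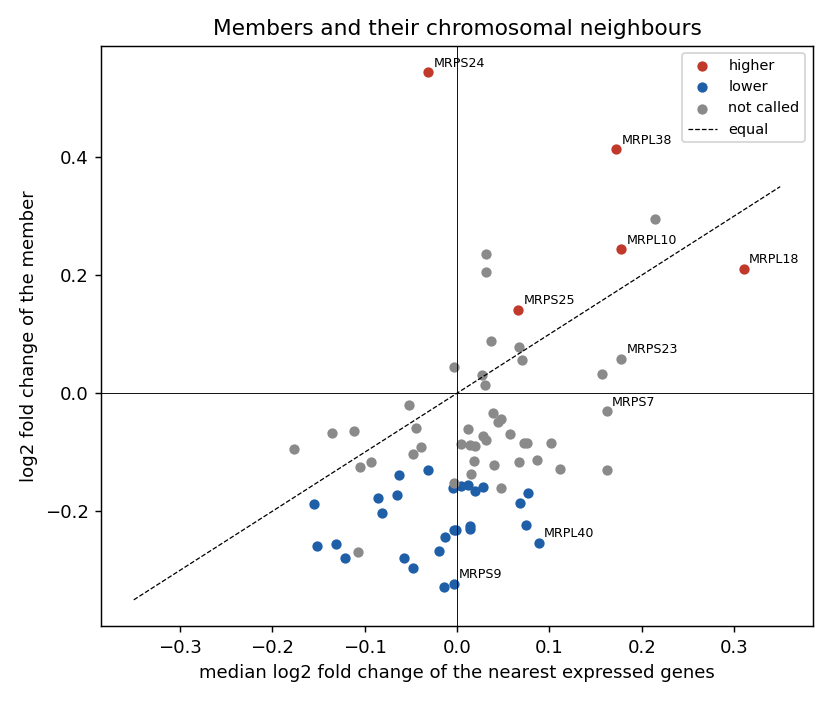
Each point is 1 of 77 members, with the median log2 fold change of its nearest expressed genes on the x axis and its own on the y axis; the dashed line marks equal values and colours mark edgeR calls. In all, 62 members lie below the line, and MRPL18 lies farthest to the right at 0.31.

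The GC content of the transcripts moved with both the replicate spread and the calls. In wild-type replicate 1 the members with GC-rich transcripts were low: it was the lowest wild-type library for 33 of 38 members above the median GC of 47.6% and for 6 of 39 at or below it. Across members, the log2 ratio of wild-type replicate 1 to replicate 3 correlated with GC at r = -0.72 and rho = -0.71, and over 9145 tested genes with at least 10 CPM at -0.81 and -0.79. The knockout libraries also spread with GC: across members, the log2 ratio of knockout replicate 1 to replicate 2 correlated with it at r = 0.49 and rho = 0.31. In MRPL41, the GC-richest member at 71.9%, the wild-type libraries gave 18.5, 24.9 and 30.7 CPM and the knockout libraries 26.7, 17.5 and 23.7 CPM. This member and MRPL12, whose wild-type values had a coefficient of variation of 40.7%, were not called.

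Without correction for GC content, calls were more frequent in GC-poor members. Of 39 members at or below the median GC, 22 fell and 2 rose, or 56.4% lower, with a median log2 fold change of -0.17. Of 38 above it, 6 fell and 3 rose, or 15.8% lower, with a median of -0.08. Among tested genes with at least 10 CPM, divided at the same GC, 24.7% and 15.2% were called lower, with medians of -0.03 and 0.04. With each library's trend on GC taken out, a setting added after seeing the data, 40 members (51.9%) were lower and 6 (7.79%) higher. Calls over all tested genes also became more frequent there, at 22.6% lower and 20.1% higher. All 28 and 5 earlier calls stayed, MRPL46 joined the higher ones, and 12 joined the lower ones. Of these 12, MRPS27 lay below the median GC. MRPL14, MRPL20, MRPL24, MRPL28, MRPL4, MRPL41, MRPL54, MRPS2, MRPS21, MRPS26 and MRPS34 lay above it. The difference in calls lower between GC-poor and GC-rich members was thus smaller in this setting. The median over the members was then -0.11.

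**Figure D4:**
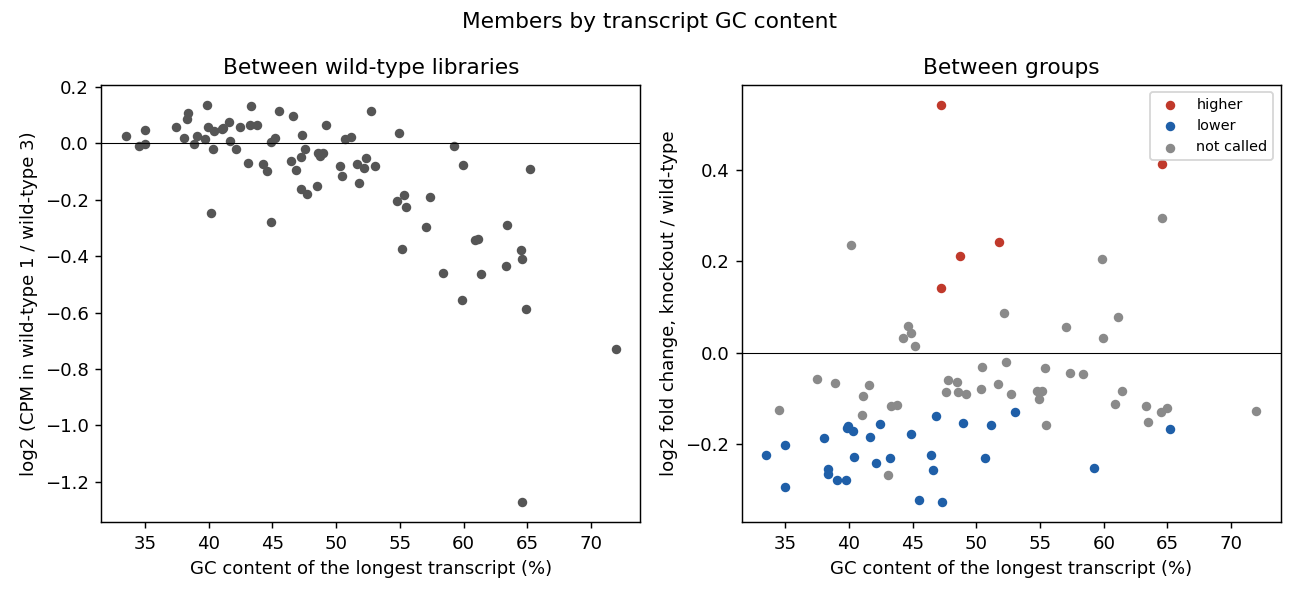
Each point is 1 of 77 members by the GC content of its longest annotated transcript in percent; the left panel plots the log2 ratio of wild-type replicate 1 to replicate 3 and the right panel the log2 fold change, knockout over wild-type, with edgeR calls in colour. On the left the ratios fall with GC (r = -0.72). On the right, with no GC trend removed, 22 of the 28 called falls lie at or below 47.6% GC.

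Other proteins of the same ribosome, whose names fall outside the pattern, were not called. These were DAP3, PTCD3, CHCHD1, AURKAIP1, GADD45GIP1 and ICT1, all 6 of 7 listed that the table holds by these symbols, with a median log2 fold change of -0.05. Over all tested genes 17.7% were called lower and 14% higher. With only 6 genes, 0 calls does not set them apart from all genes or from the members. At an unadjusted p under 0.05, edgeR gave 0 of them, and DESeq2 and limma-voom called 0. DAP3, the GTP-binding protein of the small subunit, had means of 176 and 166 CPM and a log2 fold change of -0.09 (adjusted p = 0.140). AURKAIP1 was the 1 of these above 0, at 0.07 (adjusted p = 0.725).

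Of 29 assembly factors of the mitochondrial ribosome, 5 (17.2%) fell and 2 (6.90%) rose, with a median of -0.07. The share lower was near the 17.7% of all tested genes. MTERF4, which with NSUN4 acts on the maturing large subunit, fell by 0.52 on the log2 scale, 39.4 CPM against 27.5, and its neighbours had a median of -0.33. ERAL1, the chaperone of the small ribosomal RNA, had means of 81.4 and 62.4 CPM (neighbour median -0.22), and the pseudouridine synthase TRUB2 101.8 and 83.2 CPM (neighbour median -0.05); both fell. RPUSD4 and the helicase DHX30 rose by 0.17 and 0.19 on the log2 scale, beside neighbour medians of 0.08 and 0.14.

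Of 18 mitochondrial translation factors tested, 5 (27.8%) fell and 2 (11.1%) rose, with a median of -0.10, beside 17.7% lower and 14% higher over all tested genes. The elongation factor TUFM, which delivers aminoacyl transfer RNA, fell: wild-type libraries averaged 327 ± 20.8 CPM and knockout libraries 254 ± 0.902 CPM (SD, n = 3), or -0.36 on the log2 scale, while its neighbours had a median of 0.07. GFM1, the translocase, fell by 0.62 on the log2 scale, 127 CPM against 83.0, and so did its neighbours, with a median of -0.64. GFM2, which recycles ribosomes, fell by 0.34 on the log2 scale (neighbour median -0.10). RMND1 and the release factor MTRF1L rose by 0.35 and 0.29, beside neighbour medians of 0.26 each. Of 20 genes for mitochondrial transcription and RNA processing, 8 (40%) fell and 2 (10%) rose, beside the same 17.7% and 14%, with a median of -0.12. The RNase P subunit HSD17B10 fell from 155 to 117 CPM, the RNA granule protein GRSF1 from 184 to 149 CPM and the elongation factor TEFM from 12.9 to 10.3 CPM. Their neighbour medians were -0.10, -0.09 and -0.20. FASTK rose by 0.38 and MTERF1 by 0.18 on the log2 scale, beside neighbour medians of 0.16 and -0.08.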

How the data were processed

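Poly(A)-selected RNA of HEK293T cells, in 3 wild-type and 3 knockout libraries, was sequenced from a stranded kit, per the labels' protocols. The authors deposited raw counts per gene symbol, whole numbers with 1 column per library. Trim Galore, STAR 2.4, Picard, HTSeq 0.9.1, DESeq2 and hg38 are named without role or order, per the submitters' processing notes. Neither the annotation nor the strand setting of the counting is known, so overlapping genes may not have been told apart.

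The counts were fitted whole with edgeR 4.0.16 in R 4.3.3 (filterByExpr, TMM, quasi-likelihood F test, Benjamini-Hochberg over 18061 genes, threshold 0.05). CPM is per 1000000 TMM-scaled counts of tested genes. A floor of 3 counts in a library's total equals 0.0721 to 0.0906 CPM and covers counting error only. Within each group, counts of every pair of replicates differed beyond Poisson noise (chi-square over degrees of freedom 3.30 to 13.6). They thus differed by more than counting error, which does not show whether 2 libraries came from the same RNA. Positions, exon lengths and GC content came from GENCODE v29, which matched 29572 of 56832 symbols and all 77 members. Neighbours needed a mean of at least 2 CPM. The fit was tested on simulated data.

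The members and lists were chosen with earlier results of these data known. Named in full were HLTF, the 8 called members with the lowest and those with the highest log2 fold change at 5 CPM or more, the MRPS18 genes and the 2 members per subunit with the highest level per kilobase. Up to 3 called genes per direction were named from each other list. MRPL12, MRPL41 and the members named beside partners, neighbours or GC content were chosen after their values were seen. Alternatives were RLE factors, library size only, no filter, at least 1 CPM in 3 libraries, DESeq2 1.42.0, limma-voom (limma 3.58.1), the replicate block, each library left out, removal of the neighbour median and an adjusted p under 0.01. Removal of a GC trend was added after seeing the data. The neighbour median and the GC trend each entered as fixed values, so their own error is not in those p-values.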

Additional observations from a re-analysis of the deposited data

How the results depend on the processing

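The median log2 fold change of all members stayed below 0 under all 16 alternatives. It ran from -0.125 to -0.0774 over libraries left out, from -0.134 to -0.0407 for the large and from -0.114 to -0.0920 for the small subunit. Of the 28 calls lower, 11 held under every alternative: MRPL13, MRPL15, MRPL16, MRPL19, MRPL22, MRPL39, MRPL40, MRPS9, MRPS17, MRPS31 and MRPS36. Of the 5 calls higher, 0 did. MRPL10 and MRPL18 each kept theirs in 15 alternatives and lost it with the neighbour median removed. MRPL38, MRPS25 and MRPS24 lost theirs in 6, 9 and 8. Among the calls lower, MRPL1, MRPL42, MRPL45 and MRPL51 also kept theirs in 15.

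With a library left out, called members ran from 16 to 36, calls lower from 14 (without knockout replicate 1) to 32 (without wild-type replicate 1) and calls higher from 2 (without any of the knockout replicates) to 5. In the large subunit these ranges were 12 to 25, 10 to 22 and 2 to 5, and in the small subunit 4 to 11, 4 to 10 and 0 to 2. Without knockout replicate 2, 17 members were called lower, and fewer samples enter each of these fits. Over all tested genes, 12.4% were lower without knockout replicate 1, 13.0% without knockout replicate 2 and 17.9% without wild-type replicate 1. At an adjusted p under 0.01, 17 members were called, 15 lower and 2 higher, 13 and 11 of them in the large subunit called and lower, 4 and 4 in the small subunit, with 0 higher there, beside 11.4% lower and 7.87% higher over all tested genes.

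With the replicate block, 21 members were called, 2 higher, and 5 in the small subunit, 5 lower and 0 higher, beside 13.5% lower and 9.92% higher over all genes. Same-numbered libraries correlated at -0.714 to -0.198 in their deviations from group means, and no sample correlated best with its own number. The spread between replicates moved with GC content, so these correlations cannot decide whether the libraries were paired. DESeq2 called 3 members higher. In the small subunit it called 6, with 0 higher, beside 12.6% lower and 10.4% higher over all genes. With no filter, 5 large-subunit genes and 1 in the small subunit were higher, beside 7.60% of all genes then tested. With the neighbour median removed, 1 was higher, in the small subunit, and 0 in the large. MRPL18 reversed there to -0.0994, MRPS18C to 0.0687 and HLTF to 0.0173. MRPS18A, not called, ran from -0.100 (without wild-type replicate 1) to 0.0105 (without wild-type replicate 2). With the GC trend removed, 14 small-subunit genes were lower. The cause of these changes was not tested. Changes of the size seen here rest on means of 3 libraries, and the precision for GC-rich members is limited by the spread between libraries of both groups.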
